A study of Mus musculus with 8 samples.

Results

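The gene set described here holds 37 genes that are not collagens and that are made by cartilage, bone and tendon, measured in RNA from newborn mouse skeletal muscle. The members were fixed by name and taken as the matching entries of the count table, and all 37 were found among its 23336 genes. They fall into 17 cartilage genes, 11 bone genes, 3 genes of osteoclasts and 6 tendon genes. Lect1, the chondromodulin gene, is listed under that older symbol and is Cnmd in the annotation.

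Total RNA was sequenced in 8 libraries of skeletal muscle taken at postnatal day 2 from C57BL/6 mice labelled female, 4 from ΔDMR1-U2 mice and 4 from wild-type mice. ΔDMR1-U2 is a deletion at the imprinted gene Igf2, and the study concerns transcripts of Igf2as, which runs antisense to it. Libraries were numbered 1A, 1B, 2 and 3 in both groups, and every run of 4 values below keeps that order. The sources used here do not say which muscle was dissected, how much neighbouring tissue came with it, from which parent the deletion was inherited, or whether a library is 1 animal or a pool, so p-values measure only the spread between these libraries. Nor do they say whether libraries 1A and 1B of a group are related. They were treated as separate samples, and if they share an animal or litter, the 4 libraries of a group hold fewer independent samples.

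Cartilage is built by chondrocytes, which the transcription factor SOX9, with SOX5 and SOX6, directs to make aggrecan, link protein, matrilins and other matrix proteins. Bone is laid down by osteoblasts under RUNX2 and SP7 (osterix), and osteoclasts resorb it with acid, cathepsin K and other proteases. Tendon cells depend on scleraxis (SCX) and mohawk (MKX) and make tenomodulin and small leucine-rich proteoglycans that order collagen fibrils. In newborn limbs these tissues lie directly against muscle.

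Total counts ran from 16781493 to 20060129 over the ΔDMR1-U2 libraries and from 16084413 to 26913636 over the wild-type libraries. Igf2as was lower in every ΔDMR1-U2 library, at 5.54 to 6.18 CPM (the count scaled to a common library total) against 54.4 to 72.2 CPM in wild-type libraries. ΔDMR1-U2 library 1A went against its label as female, with 49 counts of Xist, or 2.50 CPM, whereas every other library had 1269 to 1894 CPM. ΔDMR1-U2 library 1B stood at the end of the first principal component of all genes, scoring -41.7 where the rest scored -16.9 to 23.9. ΔDMR1-U2 library 3 and wild-type library 1A stood lowest on the second, at -20.7 and -25.3. In a like analysis of log2(CPM + 0.5) values, their scores were -17.5 and -20.5 with all 15241 genes and -7.7 and -15.0 with the listed skeletal genes left out, where ΔDMR1-U2 library 1B was at -7.4. For the gene set, no member was called with all 8 libraries, where 172 of 15241 genes were called. With ΔDMR1-U2 libraries 1A and 1B left out again no member was called, but only 16 of 15662 genes were. The members' median log2 fold change was -0.25 with both of these libraries and -0.31 without them.

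RUNX2 is itself a member, and several bone and cartilage members are known as targets of RUNX factors, so the 250 bases before the start of 4 members whose values are given below are printed here. The sequences are from RefSeq on the GRCm38.p6 assembly, written 5′ to 3′ on the strand of the gene, with the RUNX core letters TGTGGT, or ACCACA on the other strand, in capitals. The 4 are printed as examples of members that hold these letters, so that all 4 hold them is no result. The entries of some other members with values below hold none, among them Ibsp, Acan, Ctsk and Tnmd.
Bglap, chr3:88384467-88384716, reverse strand: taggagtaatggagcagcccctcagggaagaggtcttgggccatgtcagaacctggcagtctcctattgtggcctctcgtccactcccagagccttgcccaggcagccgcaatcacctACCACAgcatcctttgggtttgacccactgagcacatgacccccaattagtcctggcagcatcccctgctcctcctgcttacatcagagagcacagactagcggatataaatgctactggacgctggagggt
Spp1, chr5:104434861-104435110, forward strand: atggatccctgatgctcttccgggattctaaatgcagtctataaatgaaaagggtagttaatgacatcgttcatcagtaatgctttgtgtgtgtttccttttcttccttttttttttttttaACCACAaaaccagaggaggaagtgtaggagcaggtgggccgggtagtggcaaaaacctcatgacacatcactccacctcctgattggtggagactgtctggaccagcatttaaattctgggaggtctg
Mmp13, chr9:7272264-7272513, forward strand: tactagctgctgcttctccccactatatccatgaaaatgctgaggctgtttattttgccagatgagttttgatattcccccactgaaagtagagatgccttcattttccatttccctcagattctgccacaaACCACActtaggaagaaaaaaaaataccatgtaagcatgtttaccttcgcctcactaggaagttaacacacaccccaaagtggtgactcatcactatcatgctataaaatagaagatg
Matn1, chr4:130944135-130944384, forward strand: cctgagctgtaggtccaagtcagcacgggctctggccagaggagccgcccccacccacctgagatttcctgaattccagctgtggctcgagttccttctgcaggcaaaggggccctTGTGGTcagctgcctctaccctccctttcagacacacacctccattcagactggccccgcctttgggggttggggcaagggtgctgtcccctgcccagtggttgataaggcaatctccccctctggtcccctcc
The capitals start 132 bases before the start of Bglap, 128 before Spp1, 118 before Mmp13 and 134 before Matn1, on the other strand in the first 3 and on the gene's strand in Matn1. A gene with several entries was counted where any of them held the letters: Spp1 and Dmp1 held them in 1 of 2 entries and Sox6 in 2 of 6. Of the 37 members, 29 had a promoter entry, counted here over the 250 bases before the start. TGTGGT on either strand stood in 6 of the 9 bone members with an entry (Bglap, Runx2, Dmp1, Spp1, Mepe and Mmp13), in 5 of 14 cartilage members (Sox6, Matn1, Hapln1, Ucma and Cilp), in 0 of 2 osteoclast members and in 0 of 4 tendon members. Over all genes in the table of promoters, 15.9% of 27025 had it by the same count, and 14.0% of the 32851 single entries. The SOX core letters AACAAT, on either strand, stood in Sox6, Epyc and Cilp2 among the 14 cartilage members and in Kera among the tendon members, against 10.9% of all genes. The letters describe the sequence and do not show that a factor binds there.

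Position also links members. Dmp1, Ibsp, Mepe and Spp1, which encode related acidic glycoproteins of bone matrix, follow each other on chromosome 5, from chr5:104202613-104214102 for Dmp1 through chr5:104299171-104311469 for Ibsp and chr5:104325329-104338611 for Mepe to chr5:104435118-104441050 for Spp1 (GRCm38). The osteocalcin genes Bglap2 (chr3:88377736-88378699) and Bglap (chr3:88383501-88384464) are neighbours on chromosome 3. Kera, a tendon member at chr10:97606879-97613692, and Epyc, a cartilage member at chr10:97644068-97682454, are neighbours on chromosome 10.

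No member of the set was called higher or lower in ΔDMR1-U2 muscle than in wild-type muscle. At a Benjamini-Hochberg adjusted p under 0.05, the quasi-likelihood test of edgeR called 0 of the 35 members that passed the filter on low counts, where it called 1.13% of all 15241 genes tested. Bglap2 and Mepe did not pass that filter. At an unadjusted p under 0.05, 1 member passed, the matrilin gene Matn1, against 21.3% of all genes. The groups overlapped in all 35 members, while 12.8% of all genes had groups that did not overlap. DESeq2 also called 0 members, where it called 930 genes in all. In the authors' deposited table the smallest adjusted p of a member was 0.455, for Tnmd. Of the 35 members, 26 had a log2 fold change below 0 and 9 above it, with a median of -0.25, against a median of -0.001 over all genes.

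The members instead varied from library to library within both groups. The within-group standard deviation of log2(CPM + 0.1) had a median of 1.11 over the 35 members and of 0.16 over all genes. In 16 of the 35 members the highest library held at least 10 times the level of the lowest, against 0.571% of all genes. ΔDMR1-U2 library 3 and wild-type library 1A were together the lowest pair in 25 of the 35 members, and in 3.73% of all genes. That pair was lowest in 12 of 17 cartilage members, all 9 tested bone members, 2 of 3 osteoclast members (Acp5 and Ctsk) and 2 of 6 tendon members (Fmod and Thbs4). In bulk RNA, fewer cells of a type and less RNA per cell cannot be told apart.

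**Figure D1:**
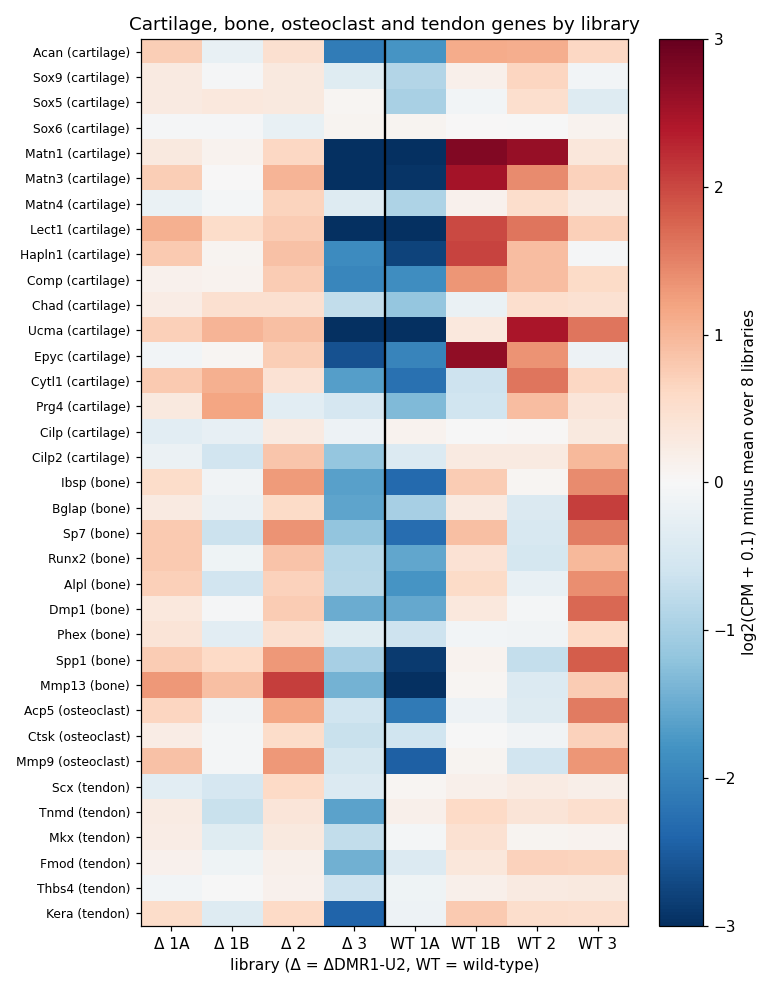
Level of each of the 35 tested members (down the page, by tissue) in each of the 8 libraries (across), as log2(CPM + 0.1) minus the gene's mean over the libraries, with the colour scale ending at -3 and 3. The columns of ΔDMR1-U2 library 3 and wild-type library 1A are blue for most cartilage and bone members, while the tendon members are blue in ΔDMR1-U2 library 3 and near their mean in wild-type library 1A.

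Cartilage members with the highest level per length were Cilp, Acan, Sox6 and Hapln1, at 22.0, 13.3, 7.95 and 4.37 CPM per kb of exon, averaged over the 8 libraries. Acan encodes aggrecan, the large proteoglycan that holds water in cartilage. Its level was 129, 66.4, 107 and 18.0 CPM in the ΔDMR1-U2 libraries and 22.6, 168, 164 and 119 CPM in the wild-type libraries. Both groups thus had 3 libraries above 60 CPM and 1 near 20 CPM. The means were 80.1 ± 48.9 CPM over the ΔDMR1-U2 libraries and 119 ± 67.7 CPM over the wild-type ones (SD, n = 4 each). The log2 fold change was -0.57 (standard error 0.59), with an adjusted p of 0.606 in the edgeR quasi-likelihood test.

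Hapln1 encodes link protein, which ties aggrecan to hyaluronan. It was at 29.6, 18.2, 31.8 and 4.58 CPM in the ΔDMR1-U2 libraries and 2.40, 70.1, 32.7 and 16.9 CPM in the wild-type libraries. The highest library was wild-type 1B and the lowest was wild-type 1A, so the range of ΔDMR1-U2 lay inside that of wild-type. Its log2 fold change was -0.56 (standard error 0.72), with an edgeR quasi-likelihood adjusted p of 0.689.

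Matn1 encodes matrilin 1, an adaptor protein of the cartilage matrix, and its promoter is one of those printed above. It was at 3.73, 3.25, 4.71 and 0.197 CPM in the ΔDMR1-U2 libraries and 0.195, 21.3, 18.9 and 3.86 CPM in the wild-type libraries. Wild-type libraries 1B and 2 lay above all others, wild-type library 3 lay among the ΔDMR1-U2 libraries, and ΔDMR1-U2 library 3 and wild-type library 1A held only 4 and 3 counts. The means were 2.97 ± 1.95 CPM over the ΔDMR1-U2 libraries and 11.1 ± 10.6 CPM over the wild-type ones (SD, n = 4 each). The log2 fold change was -1.95 (standard error 0.88), and the edgeR quasi-likelihood adjusted p over all genes was 0.232.

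Lect1, whose product chondromodulin blocks vessel growth into cartilage, and Matn3 were, like Matn1, highest in wild-type libraries 1B and 2 and lowest in ΔDMR1-U2 library 3 and wild-type library 1A. Lect1 was at 9.03, 6.29, 7.39 and 0.246 CPM in the ΔDMR1-U2 libraries and 0.454, 17.3, 13.2 and 7.09 CPM in the wild-type libraries. Epyc, the gene of the proteoglycan epiphycan, was highest in wild-type library 1B, at 5.70 CPM, and ΔDMR1-U2 library 3 held 1 count of it and wild-type library 1A 2 counts. Of the exon length of Epyc, 40.6% is shared with an annotated RNA on the other strand, Gm10754, and it is not stated whether reads were counted by strand. Ucma, the gene of a small secreted protein of cartilage, had 0 counts in wild-type library 1A, which allows up to 0.195 CPM at 3 counts, at least 38.0-fold lower than its 7.40 CPM in wild-type library 2.

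Sox6 and Cilp behaved otherwise. Sox6, which muscle fibres also express, where it represses slow-fibre genes, was at 115, 115, 101 and 125 CPM in the ΔDMR1-U2 libraries and 125, 118, 116 and 127 CPM in the wild-type libraries. Cilp, the gene of cartilage intermediate layer protein, was at 74.7, 77.9, 112 and 83.5 CPM in the ΔDMR1-U2 libraries and 99.5, 92.1, 95.6 and 114 CPM in the wild-type libraries. Both were close to level across the 8 libraries, and ΔDMR1-U2 library 3 and wild-type library 1A did not stand apart in either. Their log2 fold changes were -0.09 (standard error 0.07) and -0.21 (standard error 0.12), with edgeR quasi-likelihood adjusted p of 0.488 and 0.345. With ΔDMR1-U2 library 2 left out, Cilp was called lower at -0.35 (edgeR quasi-likelihood adjusted p = 0.0493). That fit called 631 of 15389 genes tested and 2 of 36 members, Cilp and Scx.

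The chondrocyte regulators Sox9 and Sox5 differed less between libraries than Acan or Hapln1. Sox9 ranged over 4.58 to 7.33 CPM among ΔDMR1-U2 libraries and 3.18 to 9.34 CPM among wild-type libraries. Sox5 ranged over 7.79 to 9.22 CPM among ΔDMR1-U2 libraries and 3.76 to 10.6 CPM among wild-type libraries. Sox5 had the highest log2 fold change of a cartilage member, 0.35 (standard error 0.24), with an edgeR quasi-likelihood adjusted p of 0.415. Prg4, the gene of the joint lubricant lubricin, was the only member whose highest library was ΔDMR1-U2 1B, at 18.4 CPM. The other cartilage members were Matn4, Comp, Chad, Cytl1 and Cilp2, with log2 fold changes from -0.62 for Comp to 0.12 for Chad. Over all 17 cartilage members, 0 were called, 14 lay below 0 and the median log2 fold change was -0.48.

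**Figure D2:**
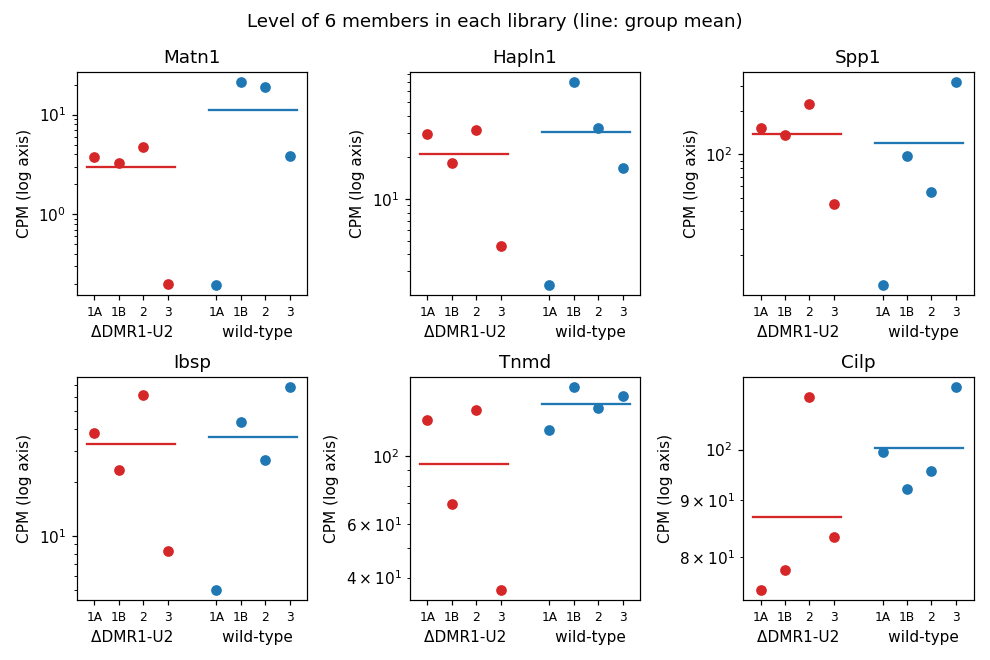
Level in CPM, on log axes, of 6 members in each of the 4 ΔDMR1-U2 (left) and 4 wild-type (right) libraries, with points for libraries and lines for group means. Matn1, Hapln1, Spp1 and Ibsp share low points in ΔDMR1-U2 library 3 and wild-type library 1A, Tnmd is low only in ΔDMR1-U2 libraries 1B and 3, and Cilp stays between 74.7 and 113.8 CPM.

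Bone members were led per length by Spp1, Ibsp, Mmp13 and Dmp1, at 78.9, 16.6, 6.12 and 2.32 CPM per kb. Spp1 encodes osteopontin, a phosphoprotein of bone matrix that macrophages and other cells also make. It was at 152, 136, 222 and 45.2 CPM in the ΔDMR1-U2 libraries and 12.3, 97.4, 54.9 and 319 CPM in the wild-type libraries. Wild-type libraries 3 and 1A were the highest and the lowest of the 8, 25.9-fold apart. Its log2 fold change was 0.20 (standard error 0.73), with an edgeR quasi-likelihood adjusted p of 0.900. An annotated RNA on the same strand, Gm42793, shares 18.8% of the exon length of Spp1.

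Ibsp encodes bone sialoprotein, a mineral-binding protein of osteoblasts. Its level was 37.8, 23.6, 62.0 and 8.23 CPM in the ΔDMR1-U2 libraries and 4.99, 43.8, 26.8 and 68.2 CPM in the wild-type libraries. Each group had 1 library below 10 CPM and 3 above 20 CPM. The means were 32.9 ± 22.8 CPM over the ΔDMR1-U2 libraries and 35.9 ± 26.7 CPM over the wild-type ones (SD, n = 4 each), and the log2 fold change was -0.15 (standard error 0.64) with an edgeR quasi-likelihood adjusted p of 0.916. Dmp1, a matrix gene of osteocytes, was at 6.28, 4.91, 8.59 and 1.73 CPM in the ΔDMR1-U2 libraries and 1.69, 6.27, 4.86 and 16.9 CPM in the wild-type libraries. It shared the low libraries of Ibsp and, like Ibsp and Spp1, was highest in wild-type library 3.

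The osteocalcin genes Bglap and Bglap2, markers of mature osteoblasts, had few counts. Bglap had 12, 8, 13 and 2 counts in the ΔDMR1-U2 libraries and 3, 16, 9 and 56 in the wild-type libraries. Bglap2 had 12, 9, 6 and 3 counts in the ΔDMR1-U2 libraries and 2, 23, 11 and 47 in the wild-type libraries. Wild-type library 3 held the most of both genes. Their transcripts are 98.9% identical over 439 aligned bases, so how reads were shared between them is uncertain. The log2 fold change of Bglap was -0.94 (standard error 0.73), with an edgeR quasi-likelihood adjusted p of 0.483.

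The transcription factors Runx2 and Sp7, the alkaline phosphatase gene Alpl and Phex, whose protease acts in phosphate handling, ranged from 0.584 to 19.8 CPM over the 8 libraries. For these 4 genes wild-type library 3 was the highest and wild-type library 1A the lowest. Their log2 fold changes ran from -0.25 for Alpl to 0.17 for Runx2. Mepe, a gene of osteocytes, had 0 to 2 counts in ΔDMR1-U2 libraries and 0 to 11 in wild-type libraries. Over the 9 tested bone members, 0 were called, 5 lay below 0 and the median log2 fold change was -0.15, which turned to 0.18 without ΔDMR1-U2 library 3 and to 0.36 without wild-type library 3.

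Mmp13 had the highest log2 fold change of all members. It encodes collagenase 3, made by hypertrophic chondrocytes and osteoblasts where cartilage is replaced by bone. It was at 25.9, 19.5, 44.1 and 3.85 CPM in the ΔDMR1-U2 libraries and 0.973, 10.9, 7.85 and 17.7 CPM in the wild-type libraries. Of the 4 ΔDMR1-U2 libraries, 3 stood above every wild-type library, and the groups overlapped through ΔDMR1-U2 library 3. The means were 23.3 ± 16.7 CPM over the ΔDMR1-U2 libraries and 9.37 ± 6.96 CPM over the wild-type ones (SD, n = 4 each). On the log2 scale the fold change was 1.27 (standard error 0.67), with an edgeR quasi-likelihood adjusted p of 0.294. It was 0.77 without ΔDMR1-U2 library 2, the highest, and 1.75 without wild-type library 3.

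Mmp13 was also set against Ibsp in the same library. The ratio of Mmp13 counts to Ibsp counts was 0.684, 0.824, 0.712 and 0.467 in the ΔDMR1-U2 libraries and 0.195, 0.249, 0.293 and 0.260 in the wild-type libraries. The groups did not overlap, although the levels of both genes varied over 10-fold. This pair was chosen after its values were seen and is given with no test. Among all 561 pairs of the 34 members counted in every library, 25 pairs, or 4.46%, had ratios that did not overlap between the groups, against 12.4% of all pairs of the 15232 tested genes counted in every library. Mmp13 was in 9 of those 25, the most of any member, followed by Mmp9 with 5. Because Mmp13 also had the highest log2 fold change of all members, this ranking is no separate result. Over all 15231 other genes, the ratio to Mmp13 did not overlap for 37, or 0.243%, and the ratio to Ibsp for 5, or 0.0328%. Among the members, the partners of Mmp13 without overlap were Acan, Matn1, Matn3, Lect1, Comp, Ibsp, Bglap, Dmp1 and Kera. Its ratios to all other members counted in every library overlapped, among them the bone members Spp1, Runx2, Sp7, Alpl and Phex.

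**Figure D3:**
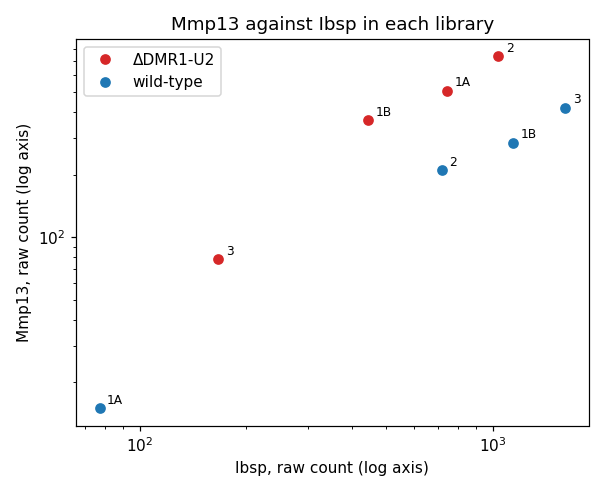
Raw counts of Mmp13 (vertical, log axis) against raw counts of Ibsp (horizontal, log axis) in the 4 ΔDMR1-U2 and 4 wild-type libraries, each point labelled with its library. The ΔDMR1-U2 points lie above the wild-type points at a given Ibsp count, with ratios of 0.467 to 0.824 for ΔDMR1-U2 and 0.195 to 0.293 for wild-type.

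Osteoclast members shared their highest library with most bone members. Ctsk, the gene of cathepsin K, was at 74.2, 61.1, 93.2 and 40.4 CPM in the ΔDMR1-U2 libraries and 42.1, 63.7, 59.3 and 104 CPM in the wild-type libraries. Mmp9, the gene of gelatinase B, which neutrophils and other cells also make, was at 41.3, 21.6, 55.2 and 15.6 CPM in the ΔDMR1-U2 libraries and 4.02, 23.9, 15.1 and 56.1 CPM in the wild-type libraries. Acp5, the gene of tartrate-resistant acid phosphatase, was at 10.3, 6.02, 14.6 and 4.29 CPM in the ΔDMR1-U2 libraries and 1.43, 5.89, 5.01 and 19.4 CPM in the wild-type libraries. Wild-type library 3 was the highest for all 3 genes, and the groups overlapped. Their log2 fold changes were -0.01 (standard error 0.28) for Ctsk, 0.41 (standard error 0.59) for Mmp9 and 0.12 (standard error 0.59) for Acp5, with edgeR quasi-likelihood adjusted p of 0.993, 0.724 and 0.928.

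Wild-type library 1A was the lowest library of 0 tendon members, where ΔDMR1-U2 library 3 was lowest for 5 and ΔDMR1-U2 library 1B for Scx. Within the wild-type group, however, library 1A was the lowest for every tendon member. All 6 had a log2 fold change below 0, with a median of -0.39, and 0 were called, but without ΔDMR1-U2 libraries 1A and 1B that of Scx was 0.01. Without ΔDMR1-U2 library 3 the median was -0.14, and all 6 values were nearer to 0 by over 1.5 times, with Tnmd at -0.38 and Kera at -0.14. Tnmd, the gene of tenomodulin, had the highest level per length of all members, at 89.5 CPM per kb. It was at 131, 69.7, 141 and 36.4 CPM in the ΔDMR1-U2 libraries and 122, 168, 144 and 157 CPM in the wild-type libraries. ΔDMR1-U2 libraries 1B and 3 lay below all the others, and wild-type library 1A, at 122 CPM, was the lowest of its group. The means were 94.5 ± 49.9 CPM over the ΔDMR1-U2 libraries and 148 ± 20.01 CPM over the wild-type ones (SD, n = 4 each). On the log2 scale the fold change was -0.65 (standard error 0.33), with an edgeR quasi-likelihood adjusted p of 0.280.

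Kera, the gene of the fibril-ordering proteoglycan keratocan, was at 74.3, 38.6, 76.5 and 9.56 CPM in the ΔDMR1-U2 libraries and 45.8, 87.3, 73.3 and 71.6 CPM in the wild-type libraries. ΔDMR1-U2 library 3 was the lowest by a wide margin, and the other 7 libraries stayed between 38.6 and 87.3 CPM. Fmod, the gene of fibromodulin, another such proteoglycan, was at 107, 90.0, 108 and 35.7 CPM in the ΔDMR1-U2 libraries and 73.7, 124, 157 and 154 CPM in the wild-type libraries. Thbs4, the gene of thrombospondin 4 of tendon matrix and muscle attachment sites, was at 169, 177, 196 and 116 CPM in the ΔDMR1-U2 libraries and 165, 199, 217 and 218 CPM in the wild-type libraries. In Fmod and Thbs4 the groups overlapped through wild-type library 1A, the lowest of its group as in the other tendon members. The log2 fold changes were -0.49 (standard error 0.46) for Kera, -0.58 (standard error 0.32) for Fmod and -0.28 (standard error 0.14) for Thbs4, with edgeR quasi-likelihood adjusted p of 0.569, 0.311 and 0.289.

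Scx, the tendon transcription factor, was at 10.3, 8.96, 19.4 and 9.51 CPM in the ΔDMR1-U2 libraries and 13.2, 14.2, 15.0 and 14.4 CPM in the wild-type libraries. The wild-type libraries lay within 2 CPM of each other, while ΔDMR1-U2 library 2 stood above all others and the remaining ΔDMR1-U2 libraries below all wild-type ones. Its log2 fold change was -0.25 (standard error 0.21), with an edgeR quasi-likelihood adjusted p of 0.525. Without ΔDMR1-U2 library 2, Scx was called lower at -0.57 (edgeR quasi-likelihood adjusted p = 0.0198), in a fit that called 631 of 15389 genes. Mkx, the mohawk gene, was highest in wild-type library 1B and lowest in ΔDMR1-U2 library 3, 2.31-fold apart, with a log2 fold change of -0.25.

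**Figure D4:**
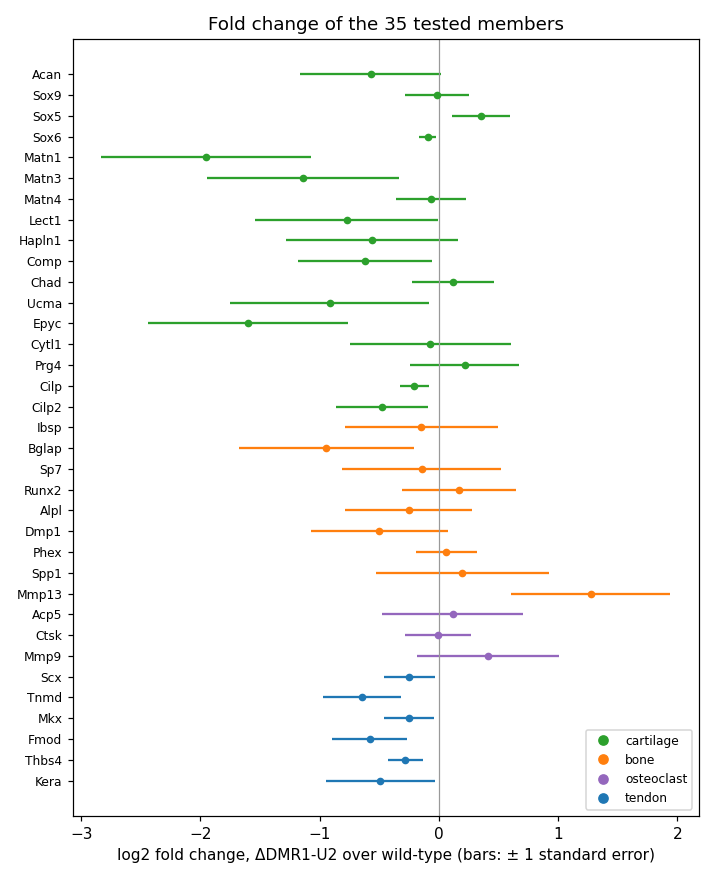
Log2 fold change of ΔDMR1-U2 over wild-type (horizontal) for the 35 tested members (down the page), with bars of 1 standard error and colours for the tissue. All 6 tendon members lie below 0, Mmp13 lies highest at 1.27 and Matn1 lowest at -1.95, with 0 members called.

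The library order was not the same for all tissues. Each member was set against its own mean over the libraries on the log2(CPM + 0.1) scale, and the median was taken per tissue. For cartilage the medians were 0.27, 0.08, 0.63 and -1.65 in the ΔDMR1-U2 libraries and -1.76, 0.27, 0.92 and 0.36 in the wild-type libraries. For bone they were 0.72, -0.12, 0.86 and -1.17 in the ΔDMR1-U2 libraries and -1.76, 0.31, -0.40 and 1.41 in the wild-type libraries. Wild-type library 2 was thus highest for cartilage and below the mean for bone, and wild-type library 3 was highest for bone. For tendon they were 0.18, -0.37, 0.33 and -1.10 in the ΔDMR1-U2 libraries and -0.09, 0.40, 0.33 and 0.39 in the wild-type libraries. Wild-type library 1A, the lowest for cartilage, bone and osteoclast members, was close to the mean for tendon, although the lowest of the wild-type libraries there.

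The highest library was also counted over single members, and for cartilage the most frequent was wild-type library 1B, not the one with the highest median. Wild-type library 3 was highest for 8 of 9 tested bone members, all but Mmp13, and for all 3 osteoclast members. Wild-type library 1B was highest for 7 of 17 cartilage members (Acan, Matn1, Matn3, Lect1, Hapln1, Comp and Epyc) and for 3 tendon members (Tnmd, Mkx and Kera). Wild-type library 2 was highest for 5 cartilage members (Sox9, Sox5, Chad, Ucma and Cytl1) and for Fmod. ΔDMR1-U2 library 2 was highest for Matn4, Mmp13 and Scx.

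**Figure D5:**
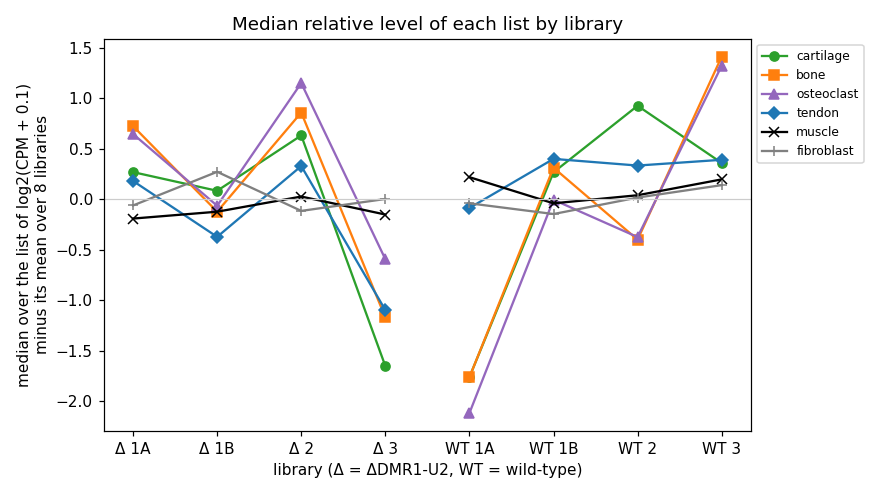
Median over each gene list of log2(CPM + 0.1) minus the gene's mean (vertical) in the 4 ΔDMR1-U2 (left) and 4 wild-type (right) libraries, with 1 line per list. The cartilage, bone and osteoclast lines are low at ΔDMR1-U2 library 3 and wild-type library 1A, the tendon line only at ΔDMR1-U2 library 3, and the muscle and fibroblast lines stay between -0.19 and 0.27.

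Markers of other cell types were followed in the same way. The 10 muscle fibre markers were present in every library, with medians of -0.19 to 0.03 in ΔDMR1-U2 libraries and -0.04 to 0.22 in wild-type libraries and a summed level of 161926 to 182504 CPM in ΔDMR1-U2 libraries and 177968 to 209773 CPM in wild-type libraries. All 10 muscle fibre markers had a log2 fold change below 0, with a median of -0.20, and 0 were called. The 8 fibroblast markers summed to 3840 to 4709 CPM in ΔDMR1-U2 libraries and 3800 to 4460 CPM in wild-type libraries. Their median log2 fold change was -0.01, with 4 above 0 and 4 below. Adipocyte and skin markers were highest in ΔDMR1-U2 library 1B, with medians of 1.31 over 7 tested adipocyte genes and 1.16 over 5 tested skin genes. The medians of 6 Schwann cell markers were 0.07 to 0.69 in ΔDMR1-U2 libraries and -0.74 to -0.04 in wild-type libraries. Those of 6 macrophage markers were -0.24 to 0.07 in ΔDMR1-U2 libraries and -0.03 to 0.40 in wild-type libraries. The 0.40 was in wild-type library 3, also the highest for the osteoclast members. Of the red cell markers, Hba-a2 and Hbb-b1 were at 0 in every library, and Alas2 was highest in wild-type library 3, at 71.4 CPM, where the rest had 19.0 to 40.5 CPM. The part of these cells in the members' levels was not tested.

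With ΔDMR1-U2 library 3 and wild-type library 1A both left out, a step chosen after the data were seen, again 0 members were called in edgeR's quasi-likelihood test. At an unadjusted p under 0.05, 9 of the 35 members then passed, against 13.5% of all genes. Both libraries were left out because they were the lowest in these same members, so a smaller spread follows from the choice and nothing is read from that count. They were the cartilage genes Acan, Matn1, Matn3, Lect1, Comp and Epyc, all below 0, the tendon genes Fmod and Thbs4, also below 0, and Mmp13, above 0. The smallest adjusted p of a member in that edgeR fit was 0.216, for Fmod at a log2 fold change of -0.51 (standard error 0.11). For Mmp13 the log2 fold change was 1.30 (standard error 0.34), with an edgeR quasi-likelihood adjusted p of 0.253, and for Matn1 it was -1.92 (standard error 0.53) with 0.261. The standard error of Acan was 0.22 there, against 0.59 with all 8 libraries. Over all genes that fit called 2.

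The collagens of cartilage, bone and tendon, which are not members, were measured in the same libraries. All 15 were tested, 0 were called and 14 had a log2 fold change below 0, with a median of -0.44. Those furthest from 0 were Col9a1 at -1.05 and Col9a3 at -0.96, both of cartilage. The smallest edgeR quasi-likelihood adjusted p of a collagen was 0.0534, for Col14a1 at -0.44 (standard error 0.095). Col9a1 was at 28.6, 21.5, 38.3 and 0.542 CPM in the ΔDMR1-U2 libraries and 0.973, 77.0, 75.7 and 27.6 CPM in the wild-type libraries, so its low pair was that of Acan and Matn1. A list of 35 further skeletal symbols had 33 in the count table. Cnmd, the newer symbol of the member Lect1, was on that list but not among those 33. Of the 33, 29 were tested and 0 called, with a median log2 fold change of -0.02. Oscar at 0.66 and Dlx5 at -0.55 were furthest from 0.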

How the data were processed

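Total RNA, depleted of ribosomal RNA, was sequenced from both ends in 8 skeletal muscle libraries, 4 per group. Per the submitters' processing notes, reads were processed on mm10 with DESeq2 1.4.5, HTSeq 0.5.4p3, TopHat2 2.0.9, Bowtie2 2.1.0 and FastQC 0.10.1. Tool settings, the gene annotation and any use of strand in counting were not given in the sources used here, so reads of overlapping genes may not be separated, and unspliced RNA may add to gene counts. Per the file headers, the table holds a raw count per gene and library, with no normalization. It also holds the authors' mean normalised counts, a signal deposited per group without library values. The authors' fold change and its log2, deposited as wild-type over ΔDMR1-U2, run opposite to the direction used here. A p-value per gene and its adjusted form were deposited by the authors too.

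The quasi-likelihood test of edgeR 4.0.16 (R 4.3.3) was run on the raw counts, after filterByExpr at a minimum count of 10 and scaling by the trimmed mean of M values. Benjamini-Hochberg adjusted p under 0.05 over 15241 genes was a call. CPM values use the scaled library sizes, with a pseudocount of 0.1 on the log2 scale. Totals of 16084413 to 26913636 counts set the precision, the common biological coefficient of variation was 12.3%, and floors of 3 counts cover counting error only. Libraries of the same group differed from each other by more than sampling noise. Exon lengths, positions and overlaps came from GENCODE vM21, and promoters from RefSeq on GRCm38.p6.

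The members and lists were chosen with earlier results of these data known. Library values are given for members called or with an unadjusted p under 0.05, the 4 most abundant per length in each tissue, both osteocalcin genes and members with a library far from its group. Lect1, the member pairs, the libraries set aside together and other library values were chosen after their values were seen. Alternatives were DESeq2 1.42.0, other scaling, other count filters, a replicate term and left-out libraries.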

Additional observations from a re-analysis of the deposited data

Results flagged for a closer look

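Dixon's test for 1 value far from the other 3 of its group was run on 74 groups of member values, and 2 stood out, where chance alone picks about 1 in 20. Mepe, an osteocyte gene with 0 to 11 counts a library, was at 0.467 CPM in wild-type library 3 and at 0 to 0.0747 CPM in the other wild-type libraries. Scx was at 19.4 CPM in ΔDMR1-U2 library 2 and at 8.96 to 10.3 CPM in the other ΔDMR1-U2 libraries.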

How the results depend on the processing

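Over 522 values of the 35 tested members under other settings, 468 kept their direction and their side of the threshold, 52 of 17 members changed direction and 2 became calls. The number of genes called over the whole table was 930 with DESeq2, 13 with a replicate block, 16 without ΔDMR1-U2 libraries 1A and 1B, and 2 without ΔDMR1-U2 library 3 and wild-type library 1A, an alternative chosen after the data were seen. With 1 library left out at a time it was 7 to 631, the 631 being without ΔDMR1-U2 library 2. The number of members called was 0 to 2 with 1 library left out, the 2 being Cilp and Scx without ΔDMR1-U2 library 2, and 0 under all other settings. The members' median log2 fold change stayed between -0.48 and -0.07 with 1 library left out, although single values moved by over 1.5 times in at least 1 such fit for 34 of the 35 members, all but Matn1.

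Same-numbered libraries did not deviate together over all genes, with correlations of -0.216, -0.182, -0.0839 and -0.0802. The correlation of ΔDMR1-U2 library 3 with wild-type library 1A was 0.361, so single libraries weigh on such values. These correlations therefore cannot show whether same-numbered libraries share a litter or batch, and the main fit treated them as unpaired. With the replicate block, log2 fold changes turned to 0.045 for Sox9, 0.125 for Cytl1, 0.021 for Ibsp, 0.003 for Sp7 and 0.024 for Ctsk. Without ΔDMR1-U2 libraries 1A and 1B they turned to 0.10 for Matn4, -0.10 for Chad, -0.53 for Prg4 and 0.01 for Scx. Cytl1 was at 0.01 with DESeq2, and Ctsk was at 0.002 with a minimum count of 30 and at 0.012 without ΔDMR1-U2 library 3 and wild-type library 1A. With 1 library left out at a time, the ranges that crossed 0 were -0.21 to 0.26 for Sox9, -0.34 to 0.12 for Matn4, -0.93 to 0.25 for Hapln1, -0.11 to 0.34 for Chad, -0.39 to 0.76 for Cytl1, -0.25 to 0.67 for Prg4, -0.65 to 0.35 for Ibsp, -1.25 to 0.21 for Bglap, -0.66 to 0.45 for Sp7, -0.10 to 0.61 for Runx2, -0.56 to 0.31 for Alpl, -0.81 to 0.27 for Dmp1, -0.086 to 0.33 for Phex, -0.18 to 1.32 for Spp1, -0.24 to 1.03 for Acp5 and -0.20 to 0.28 for Ctsk. The cause was not tested. Of the tested members, Matn1, Matn3, Lect1, Ucma, Epyc, Cytl1 and Bglap had 7 counts or fewer in both ΔDMR1-U2 library 3 and wild-type library 1A.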

Other observations

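Col10a1 and Panx3, which are made by hypertrophic chondrocytes, the enlarged cells at the border of cartilage and new bone, are set here beside the cartilage collagen gene Col2a1. They are not members and were chosen after their values were seen, so they are given with no test and stand for no gene group. Col10a1, the collagen gene of hypertrophic cartilage, was at 51.5, 7.68, 57.5 and 6.95 CPM in the ΔDMR1-U2 libraries and 6.23, 93.2, 19.8 and 37.3 CPM in the wild-type libraries. Panx3, a channel gene of the same cells, was at 3.57, 1.23, 5.55 and 0.739 CPM in the ΔDMR1-U2 libraries and 0.389, 8.38, 1.53 and 4.20 CPM in the wild-type libraries. Col2a1 was at 377, 263, 452 and 11.1 CPM in the ΔDMR1-U2 libraries and 28.1, 469, 1080 and 439 CPM in the wild-type libraries. Wild-type library 2 was thus the highest for Col2a1 and below wild-type libraries 1B and 3 for Col10a1 and Panx3, and ΔDMR1-U2 library 1B was close to the low libraries for Col10a1 but not for Col2a1. The member Mmp13, which such cells also make, was not low in ΔDMR1-U2 library 1B, at 19.5 CPM.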
